A study of Homo sapiens with 4 samples.

Results

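The genes described here are 42 genes of the extracellular matrix of fibroblasts, and the measurement is how the chromosome regions that carry them touched the rest of their chromosome. Each gene was represented by the bin of about 200 kb that contains its start of transcription in hg19, out of 14310 bins on the autosomes and X. The 42 genes fell into 40 bins, because the neighbours COL4A1 and COL4A2 share a bin and so do COL6A1 and COL6A2. Values of the group are given over 37 bins, which are the members' bins on autosomes that passed a filter on completeness, beside all 12822 autosomal bins that passed it. BGN lies on X and is set against bins of X. The bins of COL5A1 and of COL6A1 and COL6A2 did not pass, and their values are given separately.

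The extracellular matrix is the network of secreted proteins that surrounds cells in connective tissue, and fibroblasts are its main producers. Fibrillar collagens give tensile strength, elastin on a scaffold of fibrillins gives recoil, and lysyl oxidases crosslink both. Basement membranes are sheets of laminin, nidogen and type IV collagen, while small leucine-rich proteoglycans bind collagen fibrils and space them. Senescent fibroblasts are known to turn from building matrix towards secreting factors that remodel it.

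Contacts were mapped by Hi-C, which joins and sequences pieces of DNA that were near each other in the nucleus. The cells were IMR90, diploid fibroblasts from human lung. The cells carried ER:HRAS G12V, an oncogenic RAS protein switched on by 4OHT. The map named Grow is of growing cells without 4OHT and the map named OIS is of cells in oncogene-induced senescence, both from an earlier data set of the laboratory and belonging to no sample of this series. Grow-shA1 (2 samples) and OIS-shA1 (2 samples, 6 days of 100 nM 4OHT) are the same conditions with a short hairpin RNA against HMGA1, which binds the minor groove of DNA rich in A and T. The 2 samples of each shA1 condition are pooled in 1 map, so there was 1 map per condition, no spread between replicates and no test of any difference. Every comparison of a map with shA1 against one without it also compares the data sets, and the effects of HMGA1 loss and of the data set cannot be told apart there. The difference OIS minus Grow and the difference OIS-shA1 minus Grow-shA1 each lie within 1 data set and share no map.

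Each pair of bins on a chromosome has a contact score, corrected for the distance between the bins, and values here are in these score units. Distal contact here means pairs more than 2 Mb apart, and local contact closer pairs. The mean was taken over the pairs of a bin that all 4 maps list, which were 137 to 845 distal pairs and 7 to 20 local pairs for a member bin. The percentile of a bin is its rank among the bins of the same chromosome. The files hold no read counts, so the precision of a score is unknown. For the shA1 conditions the paper reports more reads in growing than in senescent cells. The depth of the Grow and OIS maps is unknown here. How complete a map is can be read from the pairs it lists. Over all autosomal bins the maps listed 89.0% of distal pairs in Grow, 83.6% in Grow-shA1, 79.6% in OIS and 77.7% in OIS-shA1, and 35 of the 37 member bins had fewer distal pairs listed in OIS than in Grow. The part of this thinning in the changes below was not tested.

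The matrix genes lay mostly in active chromatin. A bin was called A (active) or B (inactive) from the sign of the leading principal component of its chromosome's correlation matrix. In Grow, 33 of the 37 member bins were A, compared with 42.4% of all autosomal bins, and the 4 in B held COL11A1, NID1, FBN2 and MFAP5. FBN2, which encodes a fibrillin of developing microfibrils, was A in OIS and B in the other 3 maps. With a component per chromosome arm it was B in all 4 maps, and in OIS LAMC1, FMOD and PRELP were B and NID1 was A. These 4 bins lie on the long arm of chromosome 1, and the correlation of the component of the whole chromosome with gene starts, which orients it, was 0.165 in OIS and 0.302 to 0.326 in the other maps. FBLN2 was B in Grow-shA1 only.

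The member bins preferred A partners. The preference of a bin, its mean distal score with A bins minus that with B bins, had a median of 0.796 over the members in Grow, compared with -0.341 over all autosomal bins and 0.629 over the A bins. It was above 0 in 32 of the 37 bins (86.5%), compared with 39.5% of all autosomal bins and 93.0% of A bins. COL15A1 (1.41), LOXL2 (1.29) and ELN (1.28) had the highest preference in Grow and COL11A1 (-0.869) the lowest. This value follows the compartment call by construction, so it describes where the genes sit.

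The base composition of the member bins was close to that of A chromatin. Their median GC content was 41.2%, compared with 39.8% over all autosomal bins and 41.7% over A bins. Runs of 6 or more A or T bases took up 14.5% of their length, compared with 15.8% over all autosomal bins and 14.5% over A bins. Among the members COL11A1 had the lowest GC content (33.5%) and ELN the highest (51.8%).

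The 200 bases before the start of transcription differed more between the members. Of the 42 members, 25 (59.5%) had at least 1 run of 6 or more A or T there, on either strand, compared with 43.7% of the windows of 19540 protein-coding genes. The median share of A and T in the windows was lower in the members (33.0%) than over all these genes (35.5%). The 5 leucine-rich proteoglycan genes all had such a run. The windows below are from GRCh37, written along the strand of the gene and free of annotated exons, with those runs in capitals. The windows of FMOD (chr1:203320251-203320450, minus strand), PRELP (chr1:203444734-203444933, plus strand) and ASPN (chr9:95244789-95244988, minus strand) are shown because the bins of all autosomal proteoglycan genes had a distal change above 0. Those of FBLN2 (chr3:13590425-13590624, plus strand) and COL11A1 (chr1:103574079-103574278, minus strand) are shown because these genes had the highest and the lowest percentile of local change with RAS.
FMOD: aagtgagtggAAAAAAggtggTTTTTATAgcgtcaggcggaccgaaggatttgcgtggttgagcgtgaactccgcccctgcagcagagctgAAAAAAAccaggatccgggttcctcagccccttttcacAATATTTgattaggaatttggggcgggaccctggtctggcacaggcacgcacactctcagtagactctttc
PRELP: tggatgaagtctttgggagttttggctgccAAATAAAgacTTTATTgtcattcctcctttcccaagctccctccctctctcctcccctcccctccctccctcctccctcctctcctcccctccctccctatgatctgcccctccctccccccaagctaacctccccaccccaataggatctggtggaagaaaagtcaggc
ASPN: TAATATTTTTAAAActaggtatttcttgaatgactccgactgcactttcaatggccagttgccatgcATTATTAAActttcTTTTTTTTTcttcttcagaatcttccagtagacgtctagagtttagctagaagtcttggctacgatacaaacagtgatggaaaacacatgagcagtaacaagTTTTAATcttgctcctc
FBLN2: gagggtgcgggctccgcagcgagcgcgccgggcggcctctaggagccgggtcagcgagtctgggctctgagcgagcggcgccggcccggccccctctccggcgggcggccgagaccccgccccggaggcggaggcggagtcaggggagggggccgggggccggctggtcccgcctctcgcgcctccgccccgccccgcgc
COL11A1: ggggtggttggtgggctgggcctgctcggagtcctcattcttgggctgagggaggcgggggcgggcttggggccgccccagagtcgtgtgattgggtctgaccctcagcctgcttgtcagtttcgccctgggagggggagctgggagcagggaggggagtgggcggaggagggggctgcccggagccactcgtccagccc
FMOD and ASPN had 4 runs each and PRELP 2, and FBLN2 and COL11A1 had none. A run is a description of the letters and does not show binding of HMGA1.

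Distal contact with RAS was higher than along the rest of the chromosome for part of the matrix genes and lower for others. Over the 37 member bins the median of OIS minus Grow was -0.023 (quartiles -0.090 and 0.035), compared with -0.062 over all autosomal bins and -0.043 over A bins. The change was above 0 in 16 of the 37 bins (43.2%), compared with 27.2% of all autosomal bins and 30.8% of A bins. The median percentile was 61.4, and 59.4 when only bins of the same compartment were used as the reference. In the top 10% of their chromosome were 9 member bins, those of COL1A1, COL15A1, FBN1, FMOD, OGN, ASPN, PRELP, POSTN and TNC, and in the bottom 10% were 2, those of COL6A3 and LOXL2, where 10.0% of all bins lie in each by definition. The median of all bins was itself below 0. With each map centred on the mean of all pairs at the same distance, the median of the members was 0.030 and 25 of 37 bins were above 0, so the signs depend on the scaling. The share of all autosomal bins above 0 was not computed with this centring. The 25 bins therefore cannot be set against the 27.2%.

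**Figure D1:**
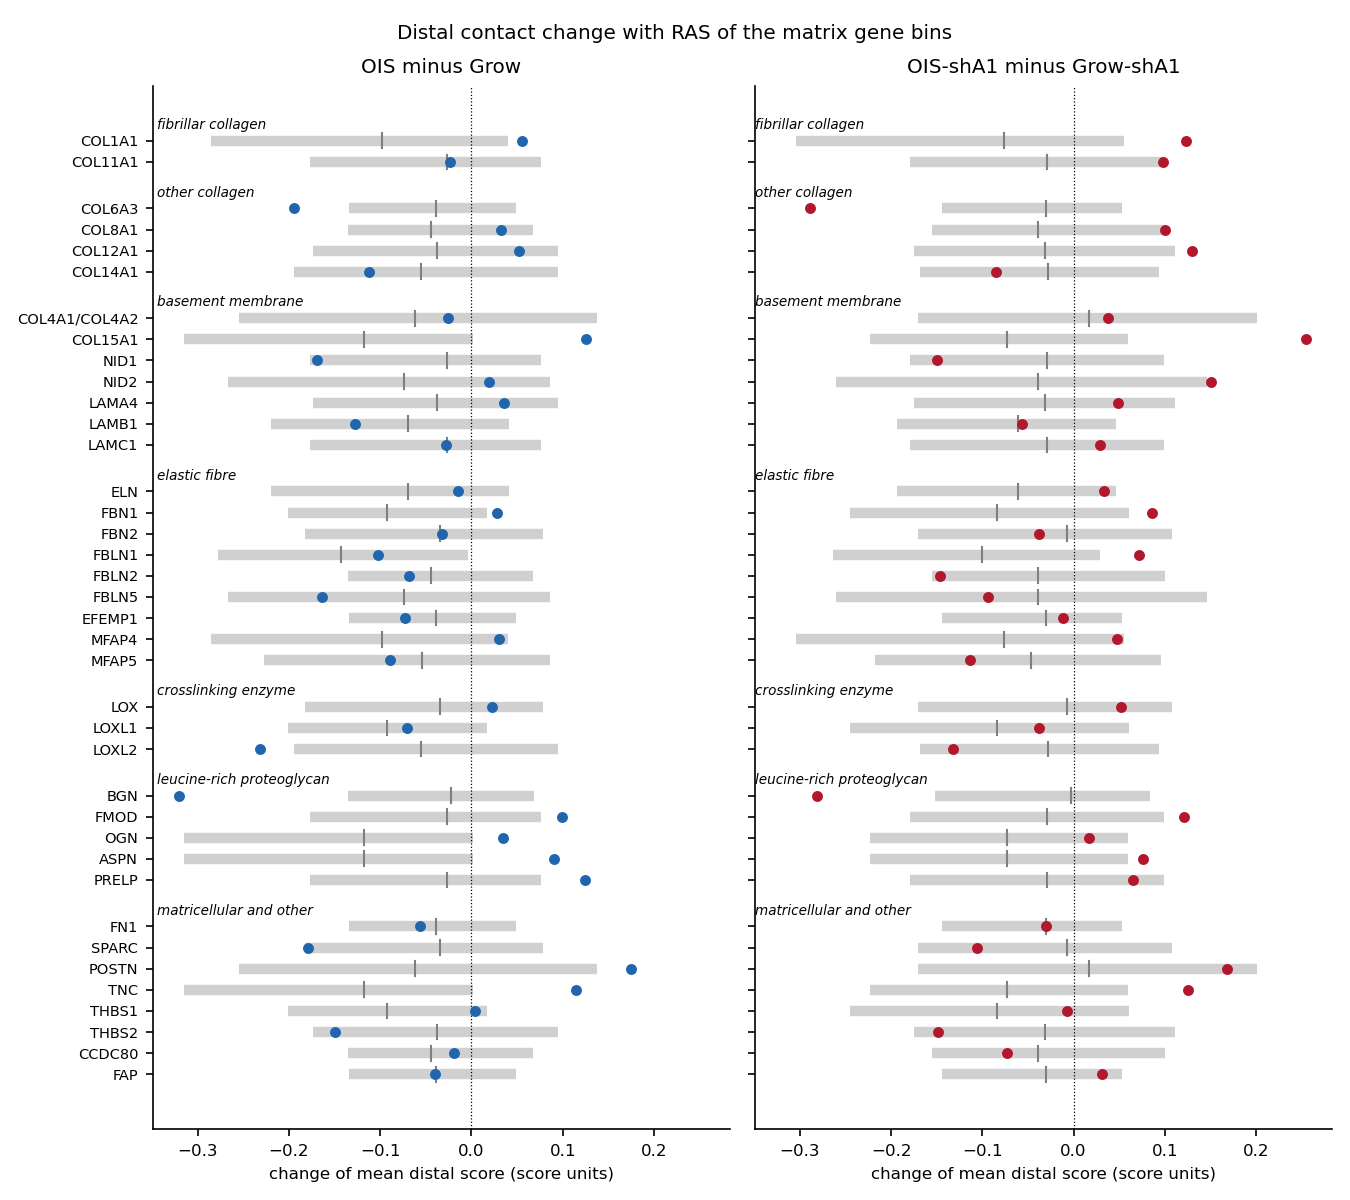
Change of the mean distal score (score units) of each member bin, ordered by the role of the gene, in OIS minus Grow (blue, left) and OIS-shA1 minus Grow-shA1 (red, right). Grey bars span the 10th to 90th percentile of all bins of the same chromosome and the tick on each is their median. COL1A1, COL15A1, FBN1, FMOD, OGN, ASPN, PRELP, POSTN and TNC lie to the right of the grey bar for OIS minus Grow, and COL6A3 and LOXL2 lie to the left of it, as does BGN on X.

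The highest percentiles belonged to COL15A1, TNC, PRELP, ASPN and POSTN. COL15A1, a basement membrane collagen at chr9:101599853-101800877, had a mean distal score of -0.038 in Grow, 0.087 in OIS, -0.102 in Grow-shA1 and 0.153 in OIS-shA1. Both maps of senescent cells were above both maps of growing cells. Its change was 0.125 without shA1 (percentile 98.9) and 0.255 with shA1 (percentile 99.7).

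TNC encodes tenascin C, a matricellular protein of wounds and tumour stroma. Its bin, chr9:117796308-118000481, scored -0.045 in Grow, 0.069 in OIS, -0.069 in Grow-shA1 and 0.056 in OIS-shA1. The change was nearly the same without shA1 (0.115, percentile 98.3) and with it (0.126, percentile 95.9). POSTN encodes periostin, which binds collagen and tenascin. Its bin, chr13:37999303-38200222, scored -0.117 in Grow, 0.058 in OIS, -0.244 in Grow-shA1 and -0.076 in OIS-shA1, and its change was 0.175 (percentile 95.3) without shA1 and 0.168 (percentile 85.9) with it. The POSTN bin was lower with shA1 in both conditions, with -0.127 in growing and -0.134 in senescent cells, so its change with RAS was of a like size on a lower level.

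The small leucine-rich proteoglycan genes on autosomes were all high. ASPN, which encodes asporin, scored -0.104 in Grow, -0.013 in OIS, -0.171 in Grow-shA1 and -0.094 in OIS-shA1. PRELP, which anchors basement membrane to connective tissue, scored -0.282 in Grow, -0.157 in OIS, -0.328 in Grow-shA1 and -0.263 in OIS-shA1. In both bins OIS was the highest of the 4 maps. Their changes with RAS were 0.091 (percentile 96.9) and 0.124 (percentile 97.3), and those of FMOD (fibromodulin) and OGN (osteoglycin) were 0.099 (percentile 94.3) and 0.035 (percentile 94.0). FMOD lies beside PRELP and OGN beside ASPN in adjacent bins, so the 4 genes stand for 2 places in the genome. The mean of the bins within 1 Mb was 0.094 around FMOD and 0.078 around PRELP, but -0.045 around OGN and -0.047 around ASPN. BGN, the biglycan gene on X, went the other way with -0.320 in OIS minus Grow, at percentile 0.3 of the bins of X.

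The partners of the change differed between these genes. In OIS minus Grow the ASPN bin changed by 0.258 with B partners and by -0.062 with A partners, and the OGN bin by 0.105 and -0.027. The POSTN bin changed by 0.121 with B and 0.227 with A partners and the TNC bin by 0.065 and 0.143. COL15A1 changed by 0.140 with B and 0.115 with A partners.

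**Figure D2:**
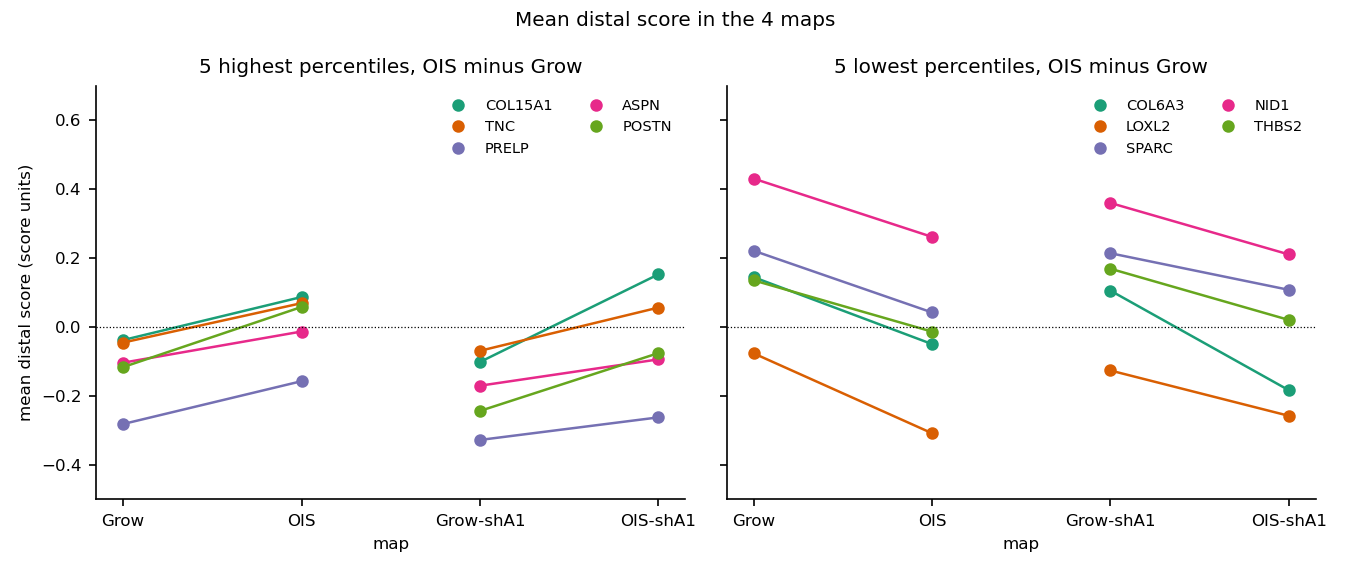
Mean distal score (score units) in the 4 maps for the 5 member bins with the highest (left) and the 5 with the lowest (right) percentile of OIS minus Grow. Lines join the maps of growing and senescent cells of the same data set. All 5 on the left were higher and all 5 on the right lower in the senescent map of both data sets, which for OIS minus Grow is how they were chosen.

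The lowest percentiles belonged to COL6A3, LOXL2, SPARC, NID1 and THBS2. COL6A3 encodes a chain of the beaded-filament collagen VI. Its bin, chr2:238201920-238399118, scored 0.145 in Grow, -0.050 in OIS, 0.106 in Grow-shA1 and -0.184 in OIS-shA1. The change was -0.194 (percentile 2.7) without shA1 and -0.289 (percentile 0.7) with it, and the bin was also thinly listed, with 62.3% of its distal pairs in Grow and 56.1% in OIS. LOXL2, a crosslinking enzyme at chr8:23202668-23400422, scored -0.077 in Grow, -0.309 in OIS, -0.126 in Grow-shA1 and -0.258 in OIS-shA1. Its change was -0.232 (percentile 6.2) without shA1 and -0.132 (percentile 18.5) with it.

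SPARC, a collagen-binding matricellular protein gene at chr5:151000310-151198612, scored 0.222 in Grow, 0.042 in OIS, 0.214 in Grow-shA1 and 0.108 in OIS-shA1. NID1, a linker of laminin and type IV collagen at chr1:236199456-236401975, scored 0.431 in Grow, 0.262 in OIS, 0.360 in Grow-shA1 and 0.211 in OIS-shA1. THBS2, an anti-angiogenic thrombospondin gene at chr6:169599859-169800310, scored 0.135 in Grow, -0.014 in OIS, 0.169 in Grow-shA1 and 0.020 in OIS-shA1. In each of these bins the senescent map was below the growing map of its data set. The change in OIS minus Grow was -0.179 (percentile 10.8) in SPARC, -0.169 (percentile 11.0) in NID1 and -0.149 (percentile 15.7) in THBS2. The change was further below 0 with B than with A partners in SPARC (-0.291 and -0.081), NID1 (-0.252 and -0.060), THBS2 (-0.286 and -0.062) and LOXL2 (-0.313 and -0.193), and about equal in COL6A3 (-0.182 and -0.197). The neighbours within 1 Mb were low as well, with -0.272 around THBS2, -0.216 around COL6A3 and -0.199 around SPARC.

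The other members are given by role, each as the distal change in OIS minus Grow. Of the fibrillar collagens, COL1A1, which encodes the main chain of type I collagen, had 0.056 (percentile 92.5) in a neighbourhood with a mean of -0.085, and COL11A1 had -0.023 (percentile 51.5). Of the other collagens, COL12A1 had 0.053 (percentile 80.0), COL8A1 0.033 (percentile 81.9) and COL14A1 -0.113 (percentile 28.5). COL14A1 combined a change of 0.173 with A partners and -0.378 with B partners. Of the basement membrane genes, LAMA4 had 0.036 (percentile 75.03), NID2 0.019 (percentile 75.2), the bin of COL4A1 and COL4A2 -0.026 (percentile 58.9), LAMC1 -0.027 (percentile 49.1) and LAMB1 -0.128 (percentile 31.5). The elastic fibre genes ranged widely. FBN1 had 0.028 (percentile 93.4), MFAP4 0.030 (percentile 87.3), ELN -0.015 (percentile 72.2), FBLN1 -0.102 (percentile 69.3) and FBN2 -0.032 (percentile 51.1). The rest were lower in rank, with -0.090 (percentile 39.2) for MFAP5, -0.068 (percentile 36.7) for FBLN2, -0.072 (percentile 32.0) for EFEMP1 and -0.164 (percentile 27.6) for FBLN5. Of the crosslinking enzymes LOX had 0.022 (percentile 74.1) and LOXL1 -0.070 (percentile 57.4). Of the matricellular and other genes, THBS1 had 0.004 (percentile 86.9), CCDC80 -0.019 (percentile 61.4), FAP -0.040 (percentile 48.9) and FN1, the fibronectin gene, -0.057 (percentile 40.3). The sign of the distal change of some members turned under part of 9 alternatives. It turned under 5 for ELN and for the bin of COL4A1 and COL4A2, under 4 for COL11A1 and under 3 for FBLN2 and LOXL1. It turned under 1 for COL8A1, LAMC1, FBN2, LOXL2, OGN, THBS1 and CCDC80, and for FBLN1 with maps centred by distance.

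With HMGA1 depleted, the distal change with RAS was again high for part of the matrix genes and low for others. The median of OIS-shA1 minus Grow-shA1 was 0.031 (quartiles -0.073 and 0.086), compared with -0.044 over all autosomal bins and -0.010 over A bins. The change was above 0 in 21 of the 37 bins (56.8%), compared with 34.3% of all autosomal bins and 45.5% of A bins, and the median percentile was 74.9 (63.7 among bins of the same compartment). In the top 10% were 10 member bins, of COL1A1, COL8A1, COL12A1, COL15A1, NID2, FBN1, FBLN1, FMOD, ASPN and TNC, and in the bottom 10% was COL6A3. Of the 5440 A bins, 799 lie in this top 10% and 211 in this bottom 10%. Of the 37 bins, 15 (40.5%) were above 0 both without and with shA1, compared with 22.1% of all autosomal bins and 26.9% of A bins. Below 0 both times were 15, compared with 60.6% and 50.6%.

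The change of the RAS difference with shA1, called the interaction, was computed as OIS-shA1 minus Grow-shA1 minus the difference of OIS and Grow, which removes any offset that the maps of 1 data set have in common. It was above 0 in 27 of the 37 member bins (73.0%), compared with 60.2% of all autosomal bins and 71.4% of A bins. Its median was 0.029, compared with 0.016 and 0.032. All 7 basement membrane bins were above 0, from 0.013 in LAMA4 to 0.132 in NID2, and of the 4 proteoglycan bins, which lie in adjacent pairs, only FMOD was (0.023). The sign of the interaction turned under 2 of 9 alternatives for LAMA4 and for ASPN. It turned under 1 for NID1 and for the bin of COL4A1 and COL4A2.

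COL11A1, a minor fibrillar collagen gene in B chromatin, had the highest percentile of the interaction (97.0), with distal scores of 0.347 in Grow, 0.324 in OIS, 0.229 in Grow-shA1 and 0.327 in OIS-shA1. Grow-shA1 was the map that stood apart. FBLN1, which encodes fibulin 1, scored 0.131 in Grow, 0.028 in OIS, 0.132 in Grow-shA1 and 0.203 in OIS-shA1, an interaction of 0.174 (percentile 96.1). Here the OIS and OIS-shA1 maps differed by 0.175 while the growing maps differed by 0.001. FAP, a surface protease of activated fibroblasts, scored 0.324 in Grow, 0.284 in OIS, 0.204 in Grow-shA1 and 0.235 in OIS-shA1, an interaction of 0.072 (percentile 91.5). LOXL2 was the fourth bin in the top 10%, with 0.100.

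The lowest percentiles of the interaction were those of COL6A3 (-0.095, percentile 2.5), FBLN2 (-0.078, percentile 5.3) and CCDC80 (-0.053, percentile 12.5). FBLN2 encodes fibulin 2 of elastic fibres and basement membranes. Its bin, chr3:13399928-13602080, scored -0.032 in Grow, -0.100 in OIS, 0.073 in Grow-shA1 and -0.074 in OIS-shA1. Grow-shA1 stood above the other 3 maps, and Grow-shA1 minus Grow was 0.105, at percentile 99.8 of the chromosome. Its listed distal pairs went from 76.0% in Grow to 53.7% in OIS. CCDC80 scored -0.074 in Grow, -0.093 in OIS, -0.085 in Grow-shA1 and -0.158 in OIS-shA1.

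The direct comparisons with shA1 also compare the data sets. In OIS-shA1 minus OIS the members had a median of 0.001, compared with -0.034 over all autosomal bins and -0.002 over A bins. Of the 37 bins, 19 (51.4%) were above 0, compared with 32.8% of all autosomal bins and 48.9% of A bins. COL1A1, COL12A1, NID2, FBN1, FBLN1 and SPARC were in the top 10% and POSTN in the bottom 10%, where 789 and 120 of the 5440 A bins lie. In Grow-shA1 minus Grow the median was -0.039, compared with -0.054 over all autosomal bins and -0.034 over A bins. Above 0 were 8 of 37 bins (21.6%), compared with 13.5% of all autosomal bins and 1090 of the 5440 A bins. The median percentile among bins of the same compartment was 50.8. With maps centred by distance 21 member bins were above 0, and the share of all bins was not computed there. FBLN2, LOXL1 and THBS2 were in the top 10% and COL11A1 and FAP in the bottom 10%, where 781 and 128 of the 5440 A bins lie.

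The preference for A partners had a smaller median change in the members than in A chromatin. In OIS minus Grow it was higher in 24 of 37 bins (64.9%), compared with 54.0% of all autosomal bins and 73.6% of A bins, with a median change of 0.060 over the members and 0.126 over A bins. In OIS-shA1 minus Grow-shA1 it was higher in 16 (52.0% of all bins and 61.25% of A bins), with medians of -0.023 over the members and 0.067 over A bins. The interaction of the preference was above 0 in 11 of 37 member bins, compared with 55.7% of all autosomal bins and 36.1% of A bins. Its median was -0.082 over the members and -0.052 over A bins. The 9 bins of COL6A3, COL15A1, NID2, FBN1, MFAP4, TNC, THBS1, THBS2 and FAP were in the bottom 10% of their chromosomes. In that bottom 10% were 1284 of all 12821 autosomal bins with a value and 903 of the 5440 A bins. FBN1, the main fibrillin of microfibrils, had preferences of 1.02 in Grow, 0.725 in OIS, 0.925 in Grow-shA1 and 0.351 in OIS-shA1. Its preference was lower in senescence in both data sets, and lowest in OIS-shA1. ASPN had 0.933 in Grow, 0.613 in OIS, 1.10 in Grow-shA1 and 1.13 in OIS-shA1, so OIS was the low map. In the direct comparisons the preference was higher in 15 member bins in OIS-shA1 minus OIS (59.9% of all bins and 47.7% of A bins). In Grow-shA1 minus Grow it was higher in 27 (60.0% of all bins and 69.3% of A bins).

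Local contact also differed widely between members. The median of OIS minus Grow over local pairs was -0.047 (quartiles -0.186 and 0.150), compared with -0.122 over all autosomal bins and -0.028 over A bins. It was above 0 in 17 of 37 bins (45.9%), compared with 35.1% of all autosomal bins and 45.6% of A bins. With each map centred by distance, the median was 0.154 and 26 bins were above 0, but the share of all bins was not computed there. COL14A1, NID2, FBLN2, LOXL1, OGN and ASPN were in the top 10% and COL11A1, COL12A1 and ELN in the bottom 10%. Of the 5438 A bins with a local value, 640 lie in this top 10% and 190 in this bottom 10%.

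**Figure D3:**
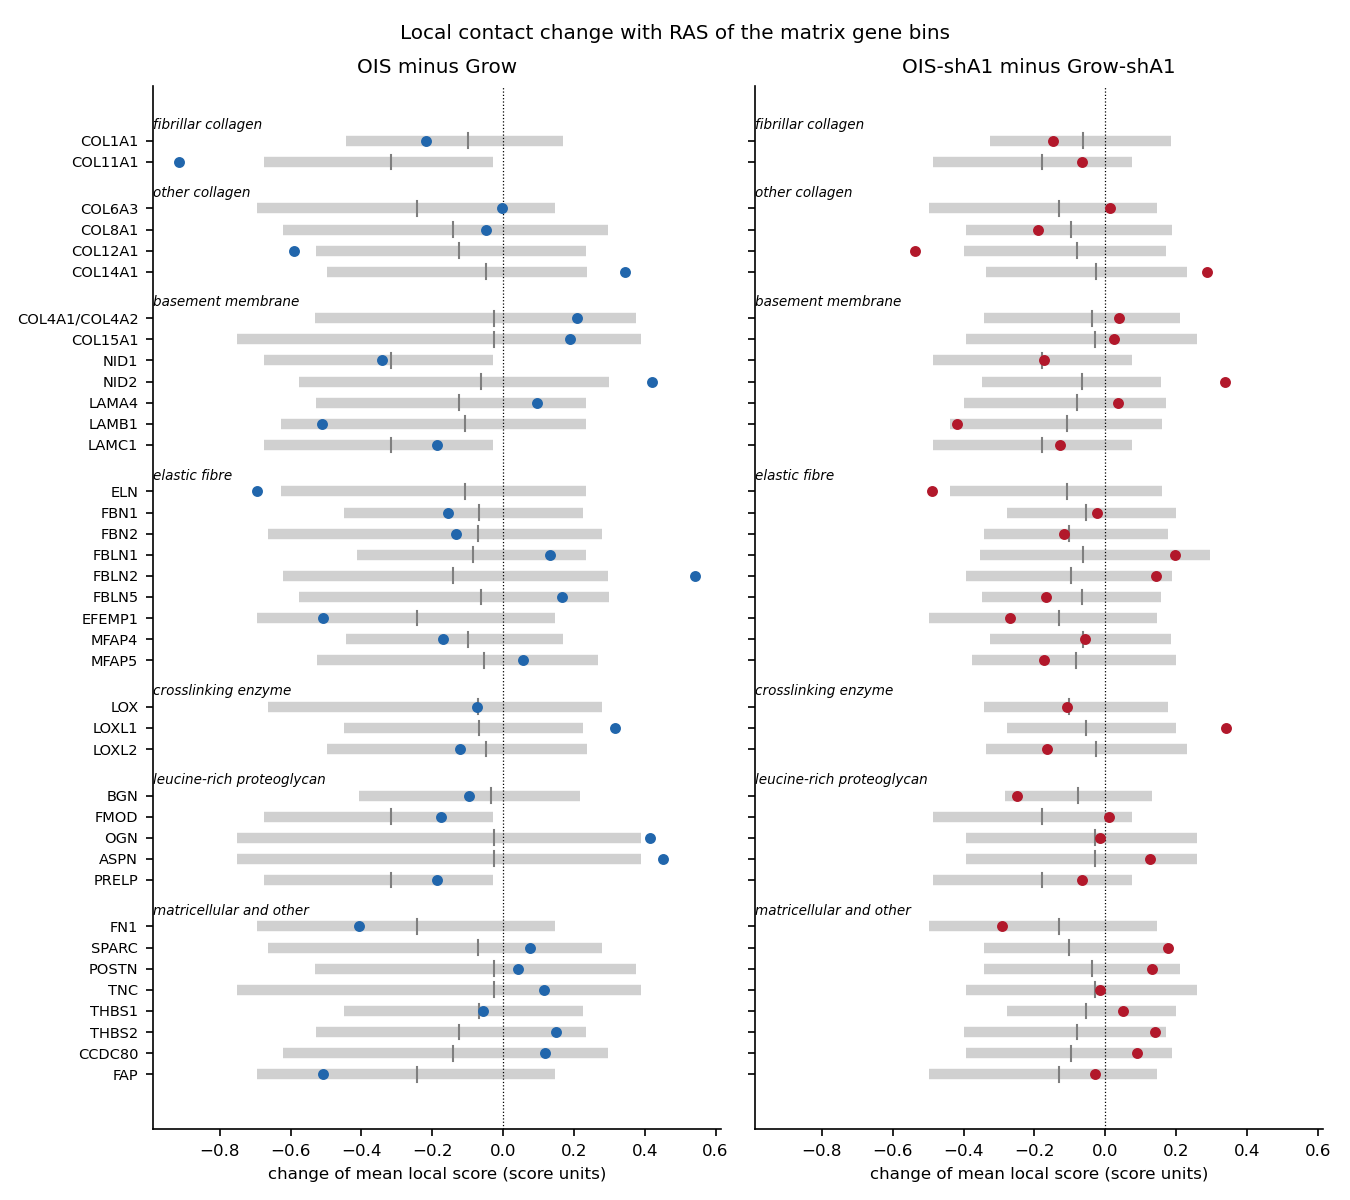
Change of the mean local score (score units) of each member bin, laid out as for the distal score, with grey bars for the 10th to 90th percentile of all bins of the same chromosome. FBLN2 lies furthest to the right and COL11A1 furthest to the left in OIS minus Grow, and with shA1 both lie inside the grey bar.

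The highest local percentile with RAS was that of FBLN2. Its mean local score was -0.503 in Grow, 0.039 in OIS, -0.585 in Grow-shA1 and -0.442 in OIS-shA1, so only the OIS map stood out. OIS minus Grow was 0.543 (percentile 99.7) and OIS-shA1 minus OIS was -0.481 (percentile 0.5), which share the OIS map, while OIS-shA1 minus Grow-shA1 was 0.144 (percentile 84.3). The higher score lay on both sides of the gene, with 0.603 over 9 upstream bins and 0.488 over 10 downstream bins, and 15 of these 19 pairs were higher in OIS than in Grow.

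The next highest were NID2 and LOXL1. NID2 encodes nidogen 2 and scored 0.319 in Grow, 0.738 in OIS, 0.179 in Grow-shA1 and 0.517 in OIS-shA1. All 20 of its local pairs were higher in OIS than in Grow, and its change was 0.419 (percentile 97.6) without and 0.338 with shA1. LOXL1, an elastin crosslinker, scored -0.356 in Grow, -0.042 in OIS, -0.405 in Grow-shA1 and -0.065 in OIS-shA1. For both genes the senescent maps of both data sets stood above the growing maps.

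OGN and ASPN were like FBLN2 in that the OIS map was the high one. ASPN scored -0.968 in Grow, -0.515 in OIS, -1.02 in Grow-shA1 and -0.890 in OIS-shA1, and OGN scored -0.916, -0.502, -0.844 and -0.858 in these maps. The difference OIS-shA1 minus OIS was -0.375 (percentile 2.9) in ASPN and -0.356 (percentile 3.7) in OGN. The bins are adjacent and share most of their local partners. FBLN5, a fibulin needed for elastic fibre assembly, scored -0.223 in Grow, -0.058 in OIS, -0.280 in Grow-shA1 and -0.447 in OIS-shA1. Its OIS-shA1 minus OIS value of -0.389 (percentile 1.5) lay mainly upstream of the gene, with -0.711 there and -0.099 downstream.

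**Figure D4:**
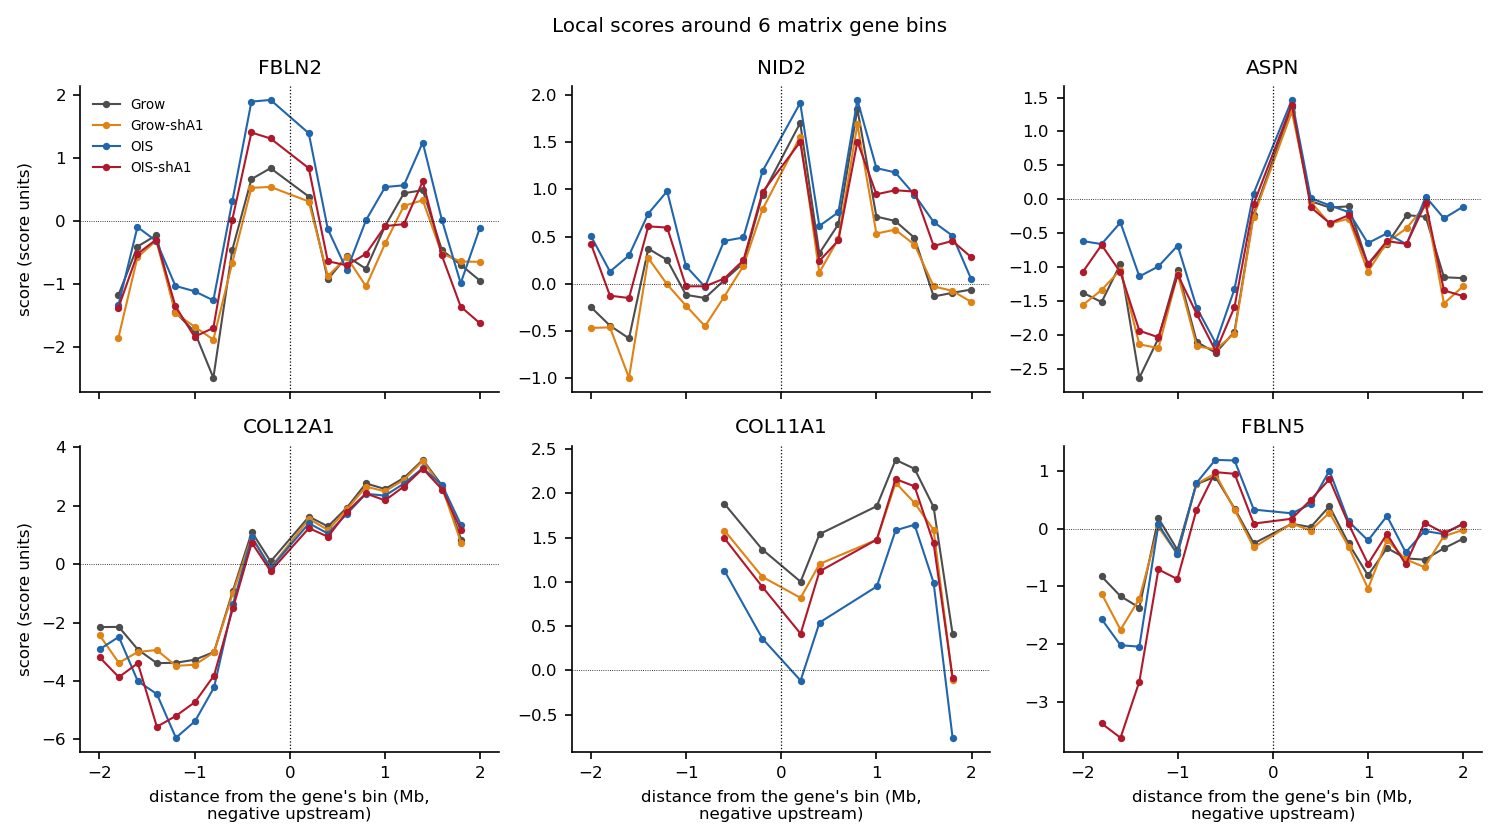
Score (score units) between the bin of 6 members and each bin within 2 Mb, in the direction of transcription, with 1 line per map (Grow grey, Grow-shA1 orange, OIS blue, OIS-shA1 red). At most distances the OIS line lies above the others for FBLN2, NID2 and the upstream side of ASPN, it lies below the others along COL11A1, and the senescent lines lie mostly below the growing lines upstream of COL12A1. The OIS-shA1 line is lowest far upstream of FBLN5.

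The lowest local percentiles were those of COL11A1, COL12A1 and ELN. COL11A1 scored 1.62 in Grow, 0.701 in OIS, 1.29 in Grow-shA1 and 1.23 in OIS-shA1, with OIS the low map by a wide margin. Its change was -0.916 (percentile 2.7) without and -0.065 (percentile 71.6) with shA1, and all 9 of its listed local pairs were lower in OIS than in Grow. The bins within 1 Mb had a mean of -0.798, so the region around the gene was lower as well.

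COL12A1, a fibril-associated collagen, scored 0.013 in Grow, -0.578 in OIS, -0.124 in Grow-shA1 and -0.661 in OIS-shA1. The lower score was on its upstream side, with -1.001 over 10 bins there, all lower in OIS than in Grow, and -0.137 over 9 bins downstream. Its upstream and downstream sides also differed in level, with -2.00 upstream and 2.25 downstream in Grow. ELN, the elastin gene, scored -1.91 in Grow, -2.61 in OIS, -1.99 in Grow-shA1 and -2.48 in OIS-shA1. Only 7 local pairs, all upstream, passed for ELN, and its listed distal pairs went from 67.9% in Grow to 49.0% in OIS.

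The other local comparisons were as follows. OIS-shA1 minus Grow-shA1 was above 0 in 16 of 37 bins (43.2%), compared with 34.3% of all autosomal bins and 34.8% of A bins. Its median was -0.022, compared with -0.089 and -0.078. With maps centred by distance 25 bins were above 0, and the share of all bins was not computed there. OIS-shA1 minus OIS was above 0 in 14 bins (37.8%), compared with 44.8% of all and 24.7% of A bins. Its median was -0.043, compared with -0.032 over all and -0.116 over A bins. Grow-shA1 minus Grow was above 0 in 5 bins (13.5%), compared with 27.0% of all autosomal bins and 1414 of the 5438 A bins. Its median was -0.082, compared with -0.053 over all and -0.055 over A bins. The local interaction was above 0 in 21 bins (56.8%), compared with 54.8% of all and 36.8% of A bins. It was highest in COL11A1 (0.851, percentile 99.4) and FAP (0.479, percentile 93.8). The lowest values were in OGN (-0.428, percentile 1.1), FBLN2 (-0.399, percentile 0.2), FBLN5 (-0.332, percentile 2.2) and ASPN (-0.326, percentile 4.5).

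By distance, the median of the members in OIS minus Grow stood furthest above that of all autosomal bins at 1 to 2 Mb. There their median of OIS minus Grow was 0.040, compared with -0.129 over all bins and -0.044 over A bins. At 2 to 5 Mb it was -0.137, close to -0.142 over all bins, and at 10 to 20 Mb it was -0.047 compared with -0.107. With shA1 the medians were 0.014 at 1 to 2 Mb (all bins -0.077) and 0.025 at 10 to 20 Mb (all bins -0.091). In each of the distance bands of both comparisons the median of all autosomal bins lay between the quartiles of the members.

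**Figure D5:**
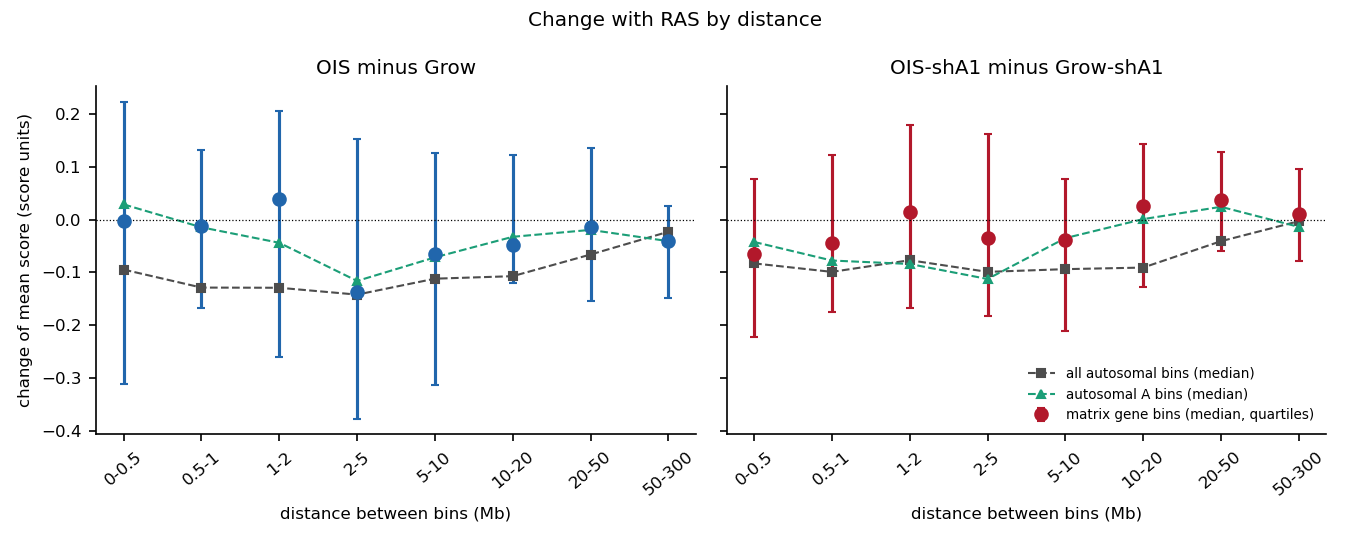
Change of the mean score (score units) by distance between the bins (Mb) in OIS minus Grow (left) and OIS-shA1 minus Grow-shA1 (right). Points are medians over the member bins with bars from the lower to the upper quartile, squares are medians over all autosomal bins and triangles medians over autosomal A bins.

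Contacts between members could be read for 37 distal pairs of member bins on the same autosome, of which 29 were listed in all 4 maps. Each is a single score and so less certain than a mean. Their median OIS minus Grow was 0.059, with a median percentile of 59.1 among pairs of like distance on the chromosome, and 16 of 29 were above 0. Both senescent maps were above both growing maps in 6 of the 29 pairs and below both in 8. Neither these orders nor the signs were counted among other pairs of like distance. The counts therefore cannot show whether anything is particular to the members. The pairs named below are those with the highest and the lowest percentiles of OIS minus Grow. COL12A1 and LAMA4, 36.6 Mb apart, scored 0.007 in Grow, 1.36 in OIS, 1.45 in Grow-shA1 and 1.29 in OIS-shA1, so Grow was the low map. EFEMP1 and FAP scored -0.132 in Grow, 1.17 in OIS, 0.661 in Grow-shA1 and 0.123 in OIS-shA1. FN1 and COL6A3, 22.0 Mb apart, scored 1.59 in Grow, 0.078 in OIS, 1.70 in Grow-shA1 and 0.303 in OIS-shA1. LOX and SPARC scored 1.67 in Grow, 0.595 in OIS, 1.82 in Grow-shA1 and 0.701 in OIS-shA1. FBN1 and LOXL1 scored 0.105 in Grow, -1.24 in OIS, 0.877 in Grow-shA1 and -0.795 in OIS-shA1. In these last 3 pairs both senescent maps were below both growing maps, with OIS minus Grow values of -1.51 (percentile 1.0), -1.08 (percentile 5.0) and -1.34 (percentile 2.8). ELN and LAMB1 went the other way, with -0.393 in Grow, 0.764 in OIS, -0.371 in Grow-shA1 and 0.270 in OIS-shA1, a change of 1.16 (percentile 94.4).

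Of the genes left out of the group values, BGN was the lowest in percentile for OIS minus Grow. Its bin scored -0.130 in Grow, -0.451 in OIS, -0.007 in Grow-shA1 and -0.287 in OIS-shA1 over distal pairs. Its change with RAS lay with B partners (-0.554), and Grow-shA1 minus Grow was 0.124 (percentile 99.5). The COL5A1 bin, near the end of its chromosome arm, had 58.4% of its pairs listed in Grow and 43.2% in OIS, and a distal change of -0.071 (percentile 64.0) over 127 pairs. Its OIS-shA1 minus OIS value was -0.203 and its interaction -0.210, both at percentile 0.099. The bin of COL6A1 and COL6A2 had 67.8% listed in Grow and 33.3% in OIS, and a distal change of 0.162 (percentile 94.6) over 32 pairs. Its Grow-shA1 minus Grow value was 0.384 (percentile 99.7) and its interaction -0.523 (percentile 0.28).

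Of 60 other genes of the matrix that are no members, 44 bins passed. Their median distal OIS minus Grow was -0.001, compared with -0.062 over all autosomal bins and -0.043 over A bins. Above 0 were 21 of 44 (47.7%), compared with 27.2% and 30.8%. In the top 10% of their chromosome were 10 and in the bottom 10% was 1, where 10.0% of all bins lie in each. With shA1 the median was -0.010, compared with -0.044 over all autosomal bins and -0.010 over A bins. Above 0 with shA1 were 21 (47.7%), compared with 34.3% and 45.5%. Their distal interaction was above 0 in 21 (47.7%), a lower share than the 60.2% of all autosomal bins and 71.4% of A bins. Over local pairs 18 (40.9%) were above 0 in OIS minus Grow, compared with 35.1% of all autosomal bins and 45.6% of A bins. The local median was -0.043, compared with -0.122 and -0.028.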

How the data were processed

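Hi-C was performed by in-nucleus ligation with HindIII in IMR90 cells carrying ER:HRAS G12V. Per the labels and methods, the authors processed reads with HiC-Pro on hg19, balanced the maps and corrected them for distance. The deposited value is a score for each pair of bins of about 200 kb on a chromosome. Its log base and any prior count were not given in the sources used here. The shA1 maps pool 2 samples each.

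Chromosome ends of the bins equalled those of GRCh37 for all 24 chromosomes. A bin was kept if at least 50% of its pairs were listed in each of the 4 maps. Distal (over 2 Mb) and local means were taken over pairs listed in all 4 maps and ranked among kept bins of the chromosome. Compartments were the sign of the leading principal component, oriented by protein-coding starts. Starts were those of the canonical transcripts of GENCODE lifted to GRCh37. Every member was named with its distal change, and values in all maps were given for the 5 highest and 5 lowest percentiles of distal change and the 3 highest and 3 lowest of local change and of the distal interaction. Other genes given in all maps were chosen after their values were seen. The members and lists were chosen with earlier results of these data known. No test was made, since each condition had 1 map. Alternatives varied the distance limits, the scaling, unlisted pairs, the bins per gene and the reference bins. The scripts (Python 3.11.15, numpy 2.4.6, pandas 2.3.3, matplotlib 3.10.9) were tested on simulated data.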

Additional observations from a re-analysis of the deposited data

Results flagged for a closer look

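In 5 cases the change with RAS had opposite signs without and with shA1 while the interaction was at or above the 90th or at or below the 10th percentile of the chromosome. The difference between the data sets was not tested, since each condition had 1 map. The distal change of COL11A1 was -0.023 without shA1 and 0.098 with it, an interaction of 0.121 at percentile 97.0. The distal change of FBLN1 was -0.102 without and 0.072 with shA1, an interaction of 0.174 at percentile 96.1. That of FAP was -0.040 without and 0.031 with shA1, an interaction of 0.072 at percentile 91.5. The local change of FBLN5 was 0.165 without and -0.167 with shA1, an interaction of -0.332 at percentile 2.2. The local change of OGN was 0.415 without and -0.014 with shA1, an interaction of -0.428 at percentile 1.1. The sign of OIS minus Grow depended on the setting in part of these. It turned under 4 of 9 alternatives for the distal change of COL11A1 (range -0.081 to 0.038), under 1 for that of FBLN1 (range -0.103 to 0.043) and under 1 for the local change of FBLN5 (range -0.195 to 0.279), and under none of the 9 for FAP (distal) and OGN (local).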

How the results depend on the processing

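The number of maps and the share of pairs they list limit these results. Of the distal group medians 61 kept their sign across alternatives and 9 reversed, and of the local ones 61 and 9. The cause of each reversal was not tested. Counts of bins above 0 under the alternatives were made for the member bins only, without the share of all bins. Median percentiles stayed within the spread of the member bins under both other reference sets.

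For OIS minus Grow the distal median was 0.038 with every pair listed in the map at hand, 0.028 with unlisted pairs as 0 and 0.030 with maps centred at the same distance, which also put 25 bins above 0. The local median was 0.154 centred (26 bins above 0), 0.017 as a median over pairs and 0.011 over all bins of the gene body. For OIS-shA1 minus OIS the distal median was -0.015 with distal pairs over 5 Mb, -0.0056 for pairs from 2 to 50 Mb, -0.0060 with scores limited to the 1st to 99th percentile, -0.0062 with every bin with any value and -0.00053 with the bin on either side added, and the local median was 0.020 up to 5 Mb. For Grow-shA1 minus Grow the bins above 0 over distal pairs were 13 from 2 to 50 Mb, 15 with every listed pair, 18 with unlisted pairs as 0, 21 centred (median 0.014) and 5 with the bin on either side added. Over local pairs they were 13 centred and 3 without chromosome 9. For OIS-shA1 minus Grow-shA1 the local median was 0.0088 divided by the SD at the same distance and 0.085 centred, with 25 bins above 0. The local interaction was -0.039 centred, -0.0040 as a median over pairs and -0.040 with the bin on either side added. Leaving out chromosome 9, or 1 bin of each adjacent pair, was chosen after seeing the data. No paired analysis was possible because the 2 samples of each shA1 condition are pooled in 1 map, and no replicate could be left out for the same reason.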
